A study of Mus musculus with 6 samples.

Results

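The Dlx homeobox family of the mouse comprises 6 genes, *Dlx1* to *Dlx6*, and the rows that carry these 6 gene names were taken from the 55487 genes of the RNA-seq table of M1 dental epithelium at PN2.5. All 6 were found once each. There were 3 control libraries, whose mice were *Wnt10a fl/fl* without Cre, and 3 cKO libraries, whose mice were *K14-Cre;Wnt10a fl/fl*. All were taken at postnatal 2.5, and both groups carried the floxed *Wnt10a* alleles. In the cKO, Cre recombinase under the keratin 14 promoter deletes *Wnt10a* in epithelial cells, while other cells of the tooth keep the gene. Each library was made from dental epithelium pooled from several molars, 4 according to the design text of the series, while the methods give another number, so that a library is a pool and not a single mouse. The level is given as TPM, the number of transcripts of a gene scaled to a fixed library total, and it is adjusted for transcript length and can be compared between genes.

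Dlx proteins are homeodomain transcription factors related to Distal-less of the fly. Their genes lie in linked pairs, and sequence comparisons across vertebrates place 1 gene of each pair with *Dlx2*, *Dlx3* and *Dlx5* and the other with *Dlx1*, *Dlx4* and *Dlx6*. In the jaw and the tooth they act in patterning of the pharyngeal arches, in development of molars and in formation of enamel, dentin and bone, and mutations of *DLX3* cause tricho-dento-osseous syndrome, a disorder of hair, enamel and bone.

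In the GENCODE annotation of GRCm38, the members of each pair point towards each other. *Dlx1* on the forward strand and *Dlx2* on the reverse strand of chromosome 2 are separated by 9426 bases, *Dlx3* on the forward strand and *Dlx4* on the reverse strand of chromosome 11 by 15150 bases, and *Dlx6* on the forward strand and *Dlx5* on the reverse strand of chromosome 6 by 9236 bases. The homeobox, the 180 coding bases for the DNA-binding domain, is the part of the genes in which the 6 members are most alike, and it is printed here to show how far their reads can be told apart. Capitals mark the 92 of the 180 bases (51.1%) that are the same in all 6 genes.
Dlx1: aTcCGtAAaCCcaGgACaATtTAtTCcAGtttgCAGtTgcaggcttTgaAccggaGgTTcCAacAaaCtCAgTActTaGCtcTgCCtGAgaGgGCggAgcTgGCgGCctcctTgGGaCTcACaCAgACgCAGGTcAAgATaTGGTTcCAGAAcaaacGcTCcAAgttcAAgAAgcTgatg
Dlx2: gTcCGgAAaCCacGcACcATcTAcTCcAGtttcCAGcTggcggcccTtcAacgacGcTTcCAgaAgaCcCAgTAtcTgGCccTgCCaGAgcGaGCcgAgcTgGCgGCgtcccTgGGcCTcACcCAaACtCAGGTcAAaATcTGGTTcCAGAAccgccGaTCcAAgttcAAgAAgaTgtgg
Dlx3: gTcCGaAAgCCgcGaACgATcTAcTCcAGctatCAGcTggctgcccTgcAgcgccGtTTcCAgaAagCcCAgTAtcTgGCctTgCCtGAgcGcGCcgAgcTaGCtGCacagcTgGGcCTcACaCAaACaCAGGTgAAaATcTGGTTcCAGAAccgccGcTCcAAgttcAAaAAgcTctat
Dlx4: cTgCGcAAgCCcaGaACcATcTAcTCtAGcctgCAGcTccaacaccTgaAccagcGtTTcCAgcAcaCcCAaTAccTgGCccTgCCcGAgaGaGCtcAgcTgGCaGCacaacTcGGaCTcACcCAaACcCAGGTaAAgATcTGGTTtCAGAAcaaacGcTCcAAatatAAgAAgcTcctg
Dlx5: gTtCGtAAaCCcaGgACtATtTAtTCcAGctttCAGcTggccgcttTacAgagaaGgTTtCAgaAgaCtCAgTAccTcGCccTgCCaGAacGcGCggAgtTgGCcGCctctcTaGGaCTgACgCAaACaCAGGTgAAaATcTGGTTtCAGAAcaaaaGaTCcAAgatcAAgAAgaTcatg
Dlx6: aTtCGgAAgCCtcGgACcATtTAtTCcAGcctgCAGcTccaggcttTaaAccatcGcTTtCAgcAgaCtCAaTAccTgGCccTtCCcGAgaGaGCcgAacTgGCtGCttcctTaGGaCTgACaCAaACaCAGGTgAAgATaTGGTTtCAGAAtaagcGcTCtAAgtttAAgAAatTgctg
In every member the homeobox spans 132 bases of exon 2 and 48 bases of exon 3. On GRCm38 it lies at chr2:71531025-71531156 in exon 2 and chr2:71532264-71532311 in exon 3 for *Dlx1*, at chr2:71545384-71545515 in exon 2 and chr2:71544877-71544924 in exon 3 for *Dlx2* and at chr11:95121767-95121898 in exon 2 and chr11:95123409-95123456 in exon 3 for *Dlx3*. It lies at chr11:95141789-95141920 in exon 2 and chr11:95141422-95141469 in exon 3 for *Dlx4*, at chr6:6879526-6879657 in exon 2 and chr6:6878441-6878488 in exon 3 for *Dlx5* and at chr6:6865140-6865271 in exon 2 and chr6:6867041-6867088 in exon 3 for *Dlx6*. Between pairs of genes, identity over the homeobox ran from 66.1% for *Dlx3* and *Dlx6* to 81.7% for *Dlx2* and *Dlx3*. The linked genes had 73.9% (*Dlx1* and *Dlx2*), 71.7% (*Dlx3* and *Dlx4*) and 73.3% (*Dlx5* and *Dlx6*). The longest stretch shared without a mismatch by annotated transcripts of any 2 members was 23 bases.

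All 6 genes were detected in all 6 libraries. *Dlx3* had the highest mean over the libraries, 158 TPM, followed by *Dlx2* at 109 TPM, *Dlx5* at 108 TPM, *Dlx4* at 48.9 TPM, *Dlx6* at 29.5 TPM and *Dlx1* at 19.6 TPM. The median of the 13719 genes tested, those with a mean of at least 1 TPM, was 11.5 TPM. *Dlx3* stood at percentile 95.5 of these genes by level, *Dlx2* at 93.5 and *Dlx5* at 93.4, while *Dlx1*, the lowest member, stood at percentile 64.4. Of the 15 pairs of genes that can be formed, 14 had the same order in every library, and for these the within-library difference of log2(TPM + 1) had an adjusted p of 0.0335 (two-sided exact sign-flip permutation test over 6 libraries, Benjamini-Hochberg over 15 pairs, unadjusted p = 0.0313, the smallest that 6 libraries allow). The exception was *Dlx2* and *Dlx5*, neighbours in the order, which differed by -0.01 on the log2 scale (SD 0.16, n = 6), with *Dlx2* higher in 2 of 6 libraries (two-sided exact sign-flip permutation test, p = 0.938). The smallest step past the threshold was between *Dlx3* and *Dlx5*, 0.53 on the log2 scale (SD 0.23, n = 6), close to that between *Dlx3* and *Dlx2*, 0.53 (SD 0.22, n = 6). Among the lower genes, *Dlx4* exceeded *Dlx6* by 0.71 (SD 0.16, n = 6) and *Dlx6* exceeded *Dlx1* by 0.55 (SD 0.16, n = 6) on the same scale.

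**Figure D1:**
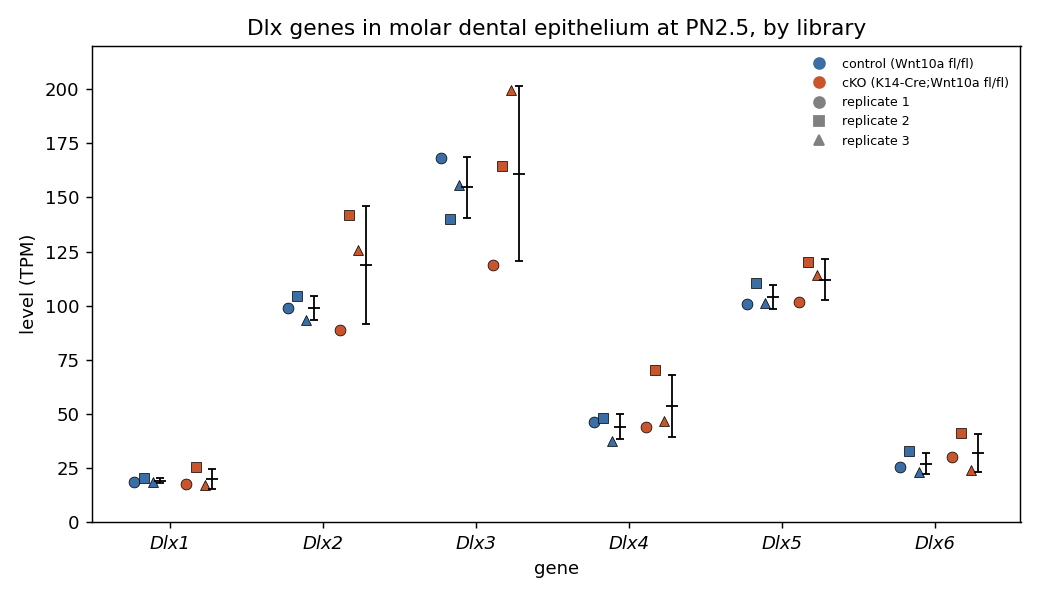
Level of each *Dlx* gene in TPM (vertical axis, from 0) in the 3 control and 3 cKO libraries, with a symbol for each replicate number and a bar for the mean ± SD of the group (n = 3). *Dlx3*, *Dlx2* and *Dlx5* lie above 88 TPM in every library and *Dlx4*, *Dlx6* and *Dlx1* below 71 TPM, and the groups overlap for every gene.

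In each linked pair the gene of the *Dlx2*, *Dlx3* and *Dlx5* group was the higher in all 6 libraries. Together these 3 genes held 75.7% to 83.3% of the summed *Dlx* TPM of a library. This grouping of the shares was set after the levels had been seen. The sum over the 6 genes was 458, 457 and 429.5 TPM in the control (here and below in the order of replicates 1, 2 and 3) and 402, 563 and 528 TPM in the cKO. The control mean was 448 ± 16.2 TPM (SD, n = 3), the cKO mean was 498 ± 85.0 TPM (SD, n = 3), and the groups overlapped because cKO replicate 1 was below all control libraries (two-sided exact permutation test, p = 0.4, where 3 against 3 allow no p below 0.1).

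The comparison of cKO with control asks whether the *Dlx* genes change when epithelial *Wnt10a* is deleted. None of the 6 passed the test. *Wnt10a* itself, the check of the labels, was 56.0, 51.2 and 57.9 TPM in the control and 22.7, 21.8 and 32.2 TPM in the cKO, without overlap (log2 fold change -1.10, SE 0.19, unadjusted p = 0.000653, adjusted p = 0.747 from limma). For the *Dlx* genes, 0 of 6 had an adjusted p below 0.05 from limma, against 0.0146% of all genes tested, and 0 of 6 had an unadjusted p below it. The study called a gene when its p was below 0.05 and its cKO mean differed by over 20%. Its methods do not name the test of the RNA-seq, so the calls made here need not be those of the study. With the unadjusted p from limma, these criteria called 0 of 6, against 4.02% of all genes. The share of all genes was 9.59% with the replicate number as a block and 4.52% after a correction for transcript length and GC content, and under both of these 0 of 6 *Dlx* genes were called. The groups overlapped for all 6, while 9.64% of all genes had no overlap (3.51% higher and 6.13% lower in the cKO, and 9.77% in all after the correction, where again all 6 overlapped). All 6 had a log2 fold change above 0, as did 39.7% of all genes, with a median of 0.16 against -0.07 for all genes. The median size of the change without regard to sign was 0.16 for the *Dlx* genes and 0.18 for all genes. The sign of *Dlx1* and *Dlx3* turned when the values were rescaled to protein-coding genes without the enamel matrix genes *Amelx* and *Ambn*, to -0.0046 and -0.02. In bulk tissue, fewer cells of a type and less RNA per cell cannot be told apart.

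**Figure D2:**
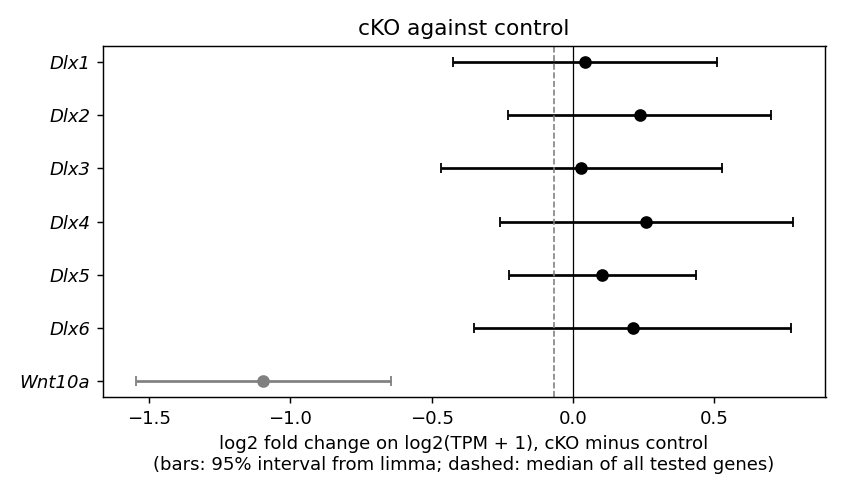
Log2 fold change of each *Dlx* gene and of *Wnt10a*, cKO minus control on log2(TPM + 1) (horizontal axis), with the 95% interval from limma (n = 3 per group) and the median of all tested genes as a dashed line. All 6 *Dlx* intervals contain 0, and that of *Wnt10a* lies below it.

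1 library stood apart in its share of *Amelx*. *Amelx* took 8.65% of the TPM of cKO replicate 2 and between 16.5% and 20.6% of the other 5 libraries, and 5 of the 6 *Dlx* genes, all but *Dlx3*, had their highest value in that library. Over all genes tested, 25.1% had their highest value there, and 38.3% had it in control replicate 2, the most of any library. Without cKO replicate 2, the log2 fold changes were -0.13 for *Dlx1*, 0.09 for *Dlx2*, -0.0024 for *Dlx3*, 0.05 for *Dlx4*, 0.05 for *Dlx5* and 0.01 for *Dlx6*, so that *Dlx1* and *Dlx3* changed sign, and none had an unadjusted p below 0.05 from limma. The part of the lower *Amelx* share in the *Dlx* values of that library was not tested.

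*Dlx1* and *Dlx2*, which act together in the arch that forms the upper molars, lie on chromosome 2, *Dlx1* from 71528113 to 71533981 and *Dlx2* from 71543408 to 71546754. *Dlx1* was 18.7, 20.5 and 18.4 TPM in the control and 17.7, 25.3 and 17.2 TPM in the cKO. The control libraries were close together, with cKO replicate 2 above and the other 2 cKO libraries below all of them. The log2 fold change was 0.04 (SE 0.20, unadjusted p = 0.836, adjusted p = 1.00 from limma), a fold of 1.03 with a 95% interval from 0.746 to 1.42 on the log2(TPM + 1) scale. *Dlx2* was 98.98, 105 and 93.5 TPM in the control and 89.0, 142 and 126 TPM in the cKO. Here 2 cKO libraries lay above every control library and 1, replicate 1, lay below. Its log2 fold change was 0.24 (SE 0.20, unadjusted p = 0.273 from limma), a fold of 1.18 with a 95% interval from 0.852 to 1.63. Without cKO replicate 1 the change was 0.43 without overlap, with an unadjusted p of 0.029 and an adjusted p of 1.00 from limma. With that library left out, 13.5% of all genes tested had no overlap, and 204 of 13719 had an unadjusted p below 0.05 from limma. Within a library *Dlx2* was 5.30, 5.10 and 5.09 times *Dlx1* in the control and 5.02, 5.61 and 7.32 times in the cKO. The 3 control ratios lay within a narrow range, and the ratio was highest in cKO replicate 3, where *Dlx1* was at its lowest. The mean log2 ratio was 0.19 higher in the cKO (two-sided exact permutation test, p = 0.4, adjusted p = 0.7 over 3 linked pairs).

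*Dlx3* and *Dlx4* lie on chromosome 11, *Dlx3* from 95120119 to 95125296 and *Dlx4* from 95140447 to 95146263. *Dlx3*, which is needed for hair, enamel and dentin, was 168, 140.1 and 156 TPM in the control and 119, 164 and 199 TPM in the cKO. The cKO libraries held both the lowest and the highest value. The log2 fold change was 0.03 (SE 0.21, unadjusted p = 0.894 from limma), a fold of 1.02 with a 95% interval from 0.723 to 1.44. *Dlx4*, known from the arches, the teeth and the placenta, was 46.5, 48.2 and 37.5 TPM in the control and 44.2, 70.3 and 46.8 TPM in the cKO. Only cKO replicate 2 was above the range of the control. Its log2 fold change was 0.26 (SE 0.22, unadjusted p = 0.278 from limma), the largest of the 6 genes, a fold of 1.20 with a 95% interval from 0.835 to 1.71. Without cKO replicate 2 it was 0.05. *Dlx3* was 3.62, 2.91 and 4.15 times *Dlx4* in the control and 2.69, 2.34 and 4.27 times in the cKO. In both groups the ratio was highest in replicate 3 and lowest in replicate 2. The difference in mean log2 ratio, cKO minus control, was -0.23 (two-sided exact permutation test, p = 0.5, adjusted p = 0.7 over 3 linked pairs).

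*Dlx5* and *Dlx6*, which set the identity of the lower jaw, lie on chromosome 6, *Dlx5* from 6877805 to 6882085 and *Dlx6* from 6863334 to 6868568. *Dlx5* was 101, 110.5 and 101 TPM in the control and 102, 120.1 and 114 TPM in the cKO. It varied least of the 6, with an SD of 0.11 on the log2(TPM + 1) scale over the 6 libraries, at percentile 1.93 of all genes tested, whose median SD was 0.31. The log2 fold change was 0.10 (SE 0.14, unadjusted p = 0.486 from limma), a fold of 1.07 with a 95% interval from 0.854 to 1.35. *Dlx6* was 25.3, 32.7 and 23.3 TPM in the control and 30.1, 41.4 and 24.3 TPM in the cKO. Each cKO library was above the control library of the same number for both genes, which held for 12.3% of all genes tested. A shared direction in all 3 such comparisons was found for 2 of 6 *Dlx* genes and 32.9% of all genes. The paper's methods speak of pairs of replicates, but the numbers were not shown to pair the libraries. The log2 fold change of *Dlx6* was 0.21 (SE 0.24, unadjusted p = 0.406 from limma), a fold of 1.16 with a 95% interval from 0.784 to 1.71. *Dlx5* was 3.98, 3.38 and 4.34 times *Dlx6* in the control and 3.37, 2.90 and 4.71 times in the cKO. As for *Dlx3* and *Dlx4*, the ratio was highest in replicate 3 of each group and lowest in replicate 2. For this pair the difference in mean log2 ratio was -0.11 (two-sided exact permutation test, p = 0.7, adjusted p = 0.7 over 3 linked pairs).

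**Figure D3:**
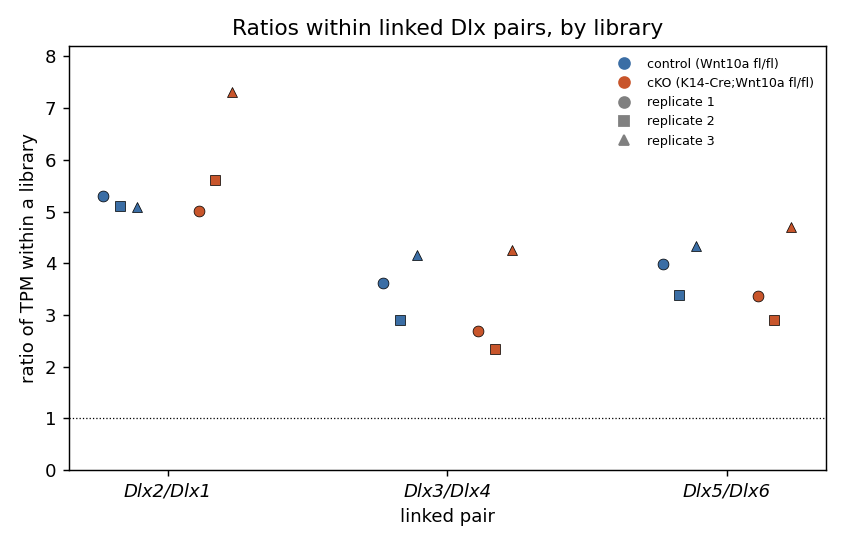
Ratio of TPM within a library for the 3 linked pairs (vertical axis, from 0, dotted line at 1) in the control and cKO libraries, with a symbol for each replicate number. Every ratio is above 2, the groups overlap in each pair, and the highest point of each pair is cKO replicate 3.

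Linked genes were not shown to vary together over the libraries. Pearson's r of log2(TPM + 1) over the 6 libraries was 0.63 for *Dlx1* and *Dlx2* (exact permutation test, p = 0.172), 0.19 for *Dlx3* and *Dlx4* (exact permutation test, p = 0.707) and 0.63 for *Dlx5* and *Dlx6* (exact permutation test, p = 0.167), with adjusted p of 0.258, 0.707 and 0.258 over the 3 pairs. Spearman's rho was 0.43, 0.26 and 0.54 (exact permutation test, p = 0.419, 0.658 and 0.297, adjusted p = 0.629, 0.658 and 0.629). Without the 2 libraries farthest from the median of the lower gene, r was -0.63, 0.47 and -0.28, values over 4 libraries that lack the extremes of that gene. Without cKO replicate 2 alone, r was -0.19 for *Dlx1* and *Dlx2* and 0.16 for *Dlx5* and *Dlx6* (exact permutation test, p = 0.75 and 0.733). Without cKO replicate 3 alone, it was 0.99 and 0.92 (exact permutation test, unadjusted p = 0.00833 and 0.0167), so that the value of both pairs depends on which of these 2 libraries is included. Across pairs, the description over the same 6 libraries ran from an r of -0.30 for *Dlx3* and *Dlx6* to 0.95 for *Dlx2* and *Dlx5*.

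The make-up of the *Dlx* transcripts, which does not depend on how a library is scaled, overlapped between the groups for each gene. Control and cKO means are given in this order (± SD, n = 3 each). *Dlx3* held 34.5% ± 3.34 and 32.2% ± 4.86 of the summed TPM, *Dlx5* 23.2% ± 1.15 and 22.8% ± 2.22, and *Dlx2* 22.1% ± 0.716 and 23.7% ± 1.52. *Dlx4* held 9.81% ± 0.959 and 10.8% ± 1.82, *Dlx6* 6.04% ± 0.973 and 6.49% ± 1.63, and *Dlx1* 4.28% ± 0.211 and 4.05% ± 0.694. The smallest unadjusted p was that of *Dlx2* (two-sided exact permutation test, p = 0.2), and every adjusted p over the 6 shares was 0.8.

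**Figure D4:**
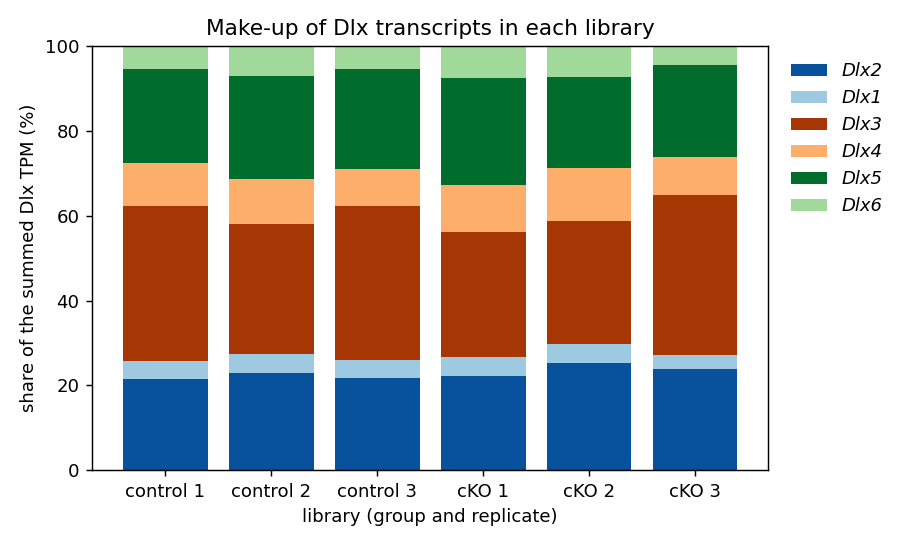
Share of each *Dlx* gene in the summed *Dlx* TPM (vertical axis, percent) in each of the 6 libraries, with linked genes in shades of 1 colour. *Dlx3* is the largest part of every bar, from 29.2% to 37.8%, and *Dlx1* the smallest, from 3.25% to 4.49%.

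Non-coding transcripts are annotated at all 3 loci. *Dlx4os*, on the strand opposite to *Dlx4*, was 16.3, 16.7 and 19.7 TPM in the control and 18.2, 18.2 and 19.6 TPM in the cKO. *Dlx6os1*, a long RNA known to act on *Dlx5* and *Dlx6* in the brain, was 3.32, 5.06 and 1.85 TPM in the control and 5.13, 5.63 and 1.88 TPM in the cKO. *Dlx1as* was 2.10, 3.10 and 1.31 TPM in the control and 0.20, 2.76 and 1.14 TPM in the cKO. Its log2 fold change was -0.53 (SE 0.46, unadjusted p = 0.279 from limma). *Dlx6os2* was at or below 0.60 TPM and was not tested. None of the tested ones had an unadjusted p below 0.05 from limma. The exons of *Dlx1as* share 335 bases with *Dlx1*, those of *Dlx6os2* 104 bases with *Dlx6* and those of *Dlx4os* 79 bases with *Dlx4*. The counting is not stated to use the strand, so reads from these stretches cannot be assigned to either gene, and the stretches are 6.21%, 4.38% and 2.42% of the exonic bases of the coding gene.

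Of the 12 nearest protein-coding genes, 2 on each side of a pair, 10 were tested and 0 had an unadjusted p below 0.05 from limma, with p from 0.0959 to 0.945. The 12 lay 2918 to 326469 bases from *Dlx1* and *Dlx2*, 43317 to 127995 from *Dlx3* and *Dlx4* and 73918 to 672793 from *Dlx5* and *Dlx6*. Next to *Dlx1* and *Dlx2*, *Itga6*, an integrin of basal epithelial cells, was 88.7 to 139.8 TPM, *Hat1* 23.3 to 46.2 TPM, *Metap1d* 15.7 to 39.8 TPM and *Pdk1* 13.1 to 29.4 TPM. Next to *Dlx3* and *Dlx4*, *Itga3*, another integrin, had a log2 fold change of -0.49 (unadjusted p = 0.0959 from limma), the largest in size among these neighbours, while *Kat7*, at 29.6 to 39.1 TPM, had -0.07 and *Pdk2*, at 15.8 to 21.1 TPM, -0.15. Next to *Dlx5* and *Dlx6*, *Sem1*, a proteasome subunit, was 81.2 to 138.8 TPM, *Slc25a13* 11.2 to 16.3 TPM and *Sdhaf3* 1.94 to 4.41 TPM. *Tac4* and *Tac1*, which encode tachykinin peptides, were at or below 0.72 and 0.23 TPM.

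Of 14 genes known to act upstream of *Dlx* genes, 12 reached a mean of 1 TPM and were tested, and 0 had an unadjusted p below 0.05 from limma. Their median log2 fold change was -0.16, against -0.07 for all genes tested. *Ctnnb1*, which encodes β-catenin, was 829.8 to 1350 TPM, *Trp63*, the basal epithelial factor that acts on *Dlx3*, 84.9 to 145 TPM, and the ligands *Bmp4* and *Bmp7* 59.7 to 85.9 and 29.5 to 54.0 TPM. *Edn1*, the endothelin ligand that acts on *Dlx5* and *Dlx6* in the arches, was at or below 0.74 TPM, and *Fgf8* was listed at 0 in every library. All 5 genes for protein partners were tested and 0 had an unadjusted p below 0.05 from limma, with *Maged1*, whose product binds Dlx and Msx proteins, at 244.7 to 312 TPM, *Msx2* at 80.5 to 110.2 TPM and *Msx1* at 7.31 to 14.1 TPM. Of 16 other homeobox and paired-box genes of the jaw and tooth, 10 were tested and 0 had an unadjusted p below 0.05 from limma. *Pitx1*, a factor of the lower jaw and the hindlimb, was 86.3 to 120.5 TPM and *Barx1*, a factor of molar mesenchyme, 19.7 to 37.1 TPM.

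Of 18 known targets of Dlx factors, 12 were tested, and 6 of these had a log2 fold change above 0, as did 39.7% of all genes tested. The lists share members and are not separate results. *Amelx*, *Enam*, *Klk4*, *Mmp20* and *Odam* are also among the enamel genes. *Runx2*, *Sp7*, *Bglap* and *Ibsp* are also among the mesenchyme markers. *Bglap*, the bone matrix protein osteocalcin, was 618, 409 and 392 TPM in the control and 1089, 686 and 738 TPM in the cKO, all cKO libraries above all control libraries. Its log2 fold change was 0.82 (SE 0.25, unadjusted p = 0.0128, adjusted p = 1.00 from limma). It was the 1 target with an unadjusted p below 0.05 from limma, which 4.02% of all genes tested had. *Bglap* belongs to a cluster of near-identical copies whose reads could be split. *Runx2* and *Sp7*, the factors of bone-forming cells, were 4.57 to 10.7 and 13.2 to 29.9 TPM and overlapped between the groups. The neural target *Gad2* was listed at 0 in every library, and *Hand2*, the arch target of *Dlx5* and *Dlx6*, was at or below 0.11 TPM. Among the enamel genes, 13 of 14 were tested and all 13 had a log2 fold change below 0. Their median was -0.43, against -0.07 for all genes tested, of which 39.7% were above 0. 1 of them, *Slc4a4*, a bicarbonate transporter, had an unadjusted p below 0.05, at 56.2, 68.0 and 41.4 TPM in the control and 38.0, 31.96 and 33.3 TPM in the cKO (log2 fold change -0.64, SE 0.21, unadjusted p = 0.0182, adjusted p = 1.00 from limma). *Amelx*, *Ambn*, *Enam* and *Mmp20* had log2 fold changes of -0.39, -0.86, -0.50 and -0.41 (limma, unadjusted p = 0.251, 0.0766, 0.136 and 0.0874), and all 4 had their lowest value in cKO replicate 2. *Ambn* was 31405, 32180 and 33061 TPM in the control and 24646, 8562 and 26263 TPM in the cKO. The groups did not overlap for 2 of the 13 tested enamel genes, *Ambn* and *Slc4a4*, and for 9.64% of all genes tested.

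The labelled tissue carried its epithelial markers in every library, *Krt14* at 2190 to 2773 TPM and *Krt5* at 1945 to 3713 TPM. The 6 markers summed to 4959 to 6951 TPM (control) and 4628 to 6498 TPM (cKO). All 6 were tested, 1 (*Epcam*) had a log2 fold change above 0, and the median was -0.11. None of the 6 had an unadjusted p below 0.05 from limma. Markers of dental mesenchyme and odontoblasts were present as well. All 15 were tested, 10 had a log2 fold change above 0, and their sum was 4099 to 8055 TPM (control) and 5660 to 6286 TPM (cKO). Among them *Dspp*, listed as an odontoblast marker, was 352 to 1302 TPM. *Dlx* genes, among them *Dlx1*, *Dlx2*, *Dlx5* and *Dlx6*, are also known in mesenchyme. The part of these cells in the levels of all 6 *Dlx* genes was not tested. Endothelial markers summed to 60.2 to 95.5 TPM (control) and 47.7 to 67.3 TPM (cKO), with 0 of 5 above 0 in log2 fold change and 2, *Cdh5* and *Tek*, with an unadjusted p below 0.05 from limma (0.0288 and 0.0458). Blood and immune markers summed to 816 to 1056 TPM (control) and 643 to 774 TPM (cKO) without overlap, with 0 of 5 tested markers above 0 and 1, *Hbb-bs*, with an unadjusted p below 0.05 from limma (0.0323). Most of this sum was hemoglobin, *Hbb-bs* at 404 to 718 TPM and *Hba-a1* at 197 to 307 TPM. *Hbb-bs* and *Lyz2*, at 28.3 to 39.1 TPM, did not overlap between the groups, as did 9.64% of all genes tested. *Hba-a1*, *Cd68* and *Csf1r*, the last 2 at or below 7.64 and 4.36 TPM, overlapped. The part of endothelial, blood and immune cells in the *Dlx* values was not tested. Muscle markers summed to 3.58 to 7.19 TPM over all libraries. For comparison with these lists, 39.7% of all genes tested had a log2 fold change above 0. An unadjusted p below 0.05 from limma was found for 4.02% of all genes tested.

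By the correlation of log2(TPM + 1) over the 6 libraries, given as a description, the protein-coding genes most like each member were *Cdc25b* (r = 0.999) and *Polg2* (0.993) for *Dlx1*, *Irx3* (0.990) and *Arl2bp* (0.983) for *Dlx2*, and *Adipor1* (0.983) and *Krt80* (0.981) for *Dlx3*. For *Dlx4* they were *Pmpcb* (0.993) and *Tefm* (0.991), for *Dlx5* *Asns* (0.984) and *Stambp* (0.981), and for *Dlx6* *Ngdn* (0.993) and *Pigx* (0.992). They are the 2 highest values among all protein-coding genes tested, over 6 libraries. The share of protein-coding genes with an r above 0.9 was smallest for *Dlx2*, 0.541%, and largest for *Dlx6*, 4.54%. *Asns*, the asparagine synthetase gene, lies on the same chromosome as *Dlx5*, 793 kb away.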

How the data were processed

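RNA-seq was performed on 3 control and 3 cKO libraries. According to the paper's methods the authors used SeqPrep and Sickle for trimming, HISAT2 for alignment and RSEM for abundance, and the submitters' processing notes name HISAT2 and StringTie. The values deposited by the authors add up to 983952 to 993946 per library and were treated as TPM, although the methods name FPKM. Genome build and versions are not given in the sources used here, and 99.5% of the gene identifiers are in GENCODE M21 (GRCm38), whose positions and transcripts were used. TPM depend on the transcript models. Depth is unknown because TPM keep none, so no counting error can be given, and precision is limited by having 3 libraries per group.

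Groups and replicate numbers came from the sample titles. On log2(TPM + 1), limma 3.58.1 was run on genes averaging 1 TPM or more in R 4.3.3 (lmFit, eBayes with a mean-variance trend, no block), adjusted by Benjamini-Hochberg over all 13719 genes, and the procedure was tested on simulated data. The titles call the libraries bio reps, and whether they came from separate litters is not stated, so p-values measure the spread between these pools. Single values were compared by exact permutation in Python 3.11.15. The *Dlx* genes and the gene lists were chosen with earlier results of these data known. Named genes were the *Dlx* genes, non-coding transcripts of their loci, the nearest 2 protein-coding genes on each side, list members with an unadjusted p below 0.05 or high means, and the 2 most similar genes of each member. *Edn1*, *Fgf8*, *Hand2*, *Gad2*, *Runx2*, *Sp7*, *Msx1* and *Dspp* were chosen after their values were seen. Some members of the lists are not reported here. Alternatives were a pseudocount of 0.1, no filter, other scalings, no trend, the replicate block, a correction for transcript length and GC content (natural splines, 4 degrees of freedom) and leaving out each library.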

Additional observations from a re-analysis of the deposited data

How the results depend on the processing

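None of the 6 *Dlx* genes had an adjusted p below 0.05 from limma under any of the 15 alternatives, where the lowest adjusted p was 0.586. *Dlx2*, *Dlx4*, *Dlx5* and *Dlx6* were above 0 in all 15. *Dlx1* was -0.0046 and *Dlx3* -0.020 when *Amelx* and *Ambn* were removed and protein-coding genes rescaled, and *Dlx3* -0.014 with quantile normalization. Leaving out 1 library gave -0.13 to 0.14 for *Dlx1*, 0.09 to 0.43 for *Dlx2*, -0.14 to 0.23 for *Dlx3*, 0.05 to 0.38 for *Dlx4*, 0.05 to 0.17 for *Dlx5* and 0.01 to 0.39 for *Dlx6*. By the criteria of an unadjusted p below 0.05 and a difference above 20%, 1 *Dlx* gene (*Dlx4*) was called with the replicate block plus length and GC correction, where 8.09% of all genes were, and 0 to 1 when a library was left out (*Dlx2* without cKO replicate 1, where 1.49% of all genes were called). The count without overlap, 0, was 1 (*Dlx4*) with quantile normalization and with median-ratio scaling, where 9.93% and 10.5% of all genes had none. It was 0 to 2 when a library was left out, where the fewer libraries make overlap rarer (13.5% to 27.6% of all genes without it). *Dlx2* and *Dlx5* were higher in the cKO without overlap when cKO replicate 1 was left out, and *Dlx5* when control replicate 2 was. *Dlx1* was lower without overlap when cKO replicate 2 was left out.

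Over all genes, the count with an adjusted p below 0.05, 2, was 4 with a pseudocount of 0.1, with quantile normalization and with the replicate block, 1 with block plus correction, 0 with the rescaling (where 755 had an unadjusted p below 0.05), and 2 to 9 without 1 library. The count by the criteria, 552, was 947 without the filter, 1315 with the replicate block, 1109 with block plus correction, and 204 to 1159 without 1 library. The cause was not tested. Of the 552 genes, 213 were higher in the cKO, against 324 of 649 with quantile normalization, 316 of 649 with median-ratio scaling, 334 of 619 with the length and GC correction and 104 of 755 with the rescaling. The rescaling moved the median of all genes to -0.12, from -0.07.

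The paper's methods speak of pairs of biological replicates without saying what joins a pair. Same-numbered libraries had correlations of deviations across genes of -0.08, 0.29 and 0.40. The main fit did not take the numbers as pairs, and the replicate block was run as an alternative. With the replicate block, 0 *Dlx* genes had an unadjusted p below 0.05 from limma and no *Dlx* call changed. Not every library correlated best with its own number, since control replicate 2 was best for cKO replicate 1.

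Without 1 library, the difference in log2 ratio was 0.04 to 0.31 for *Dlx2*/*Dlx1*, -0.49 to -0.06 for *Dlx3*/*Dlx4* and -0.31 to 0.039 for *Dlx5*/*Dlx6*. The differences in share were -0.45 to 0.17 percentage points for *Dlx1*, -1.74 to 0.26 for *Dlx5* and -0.059 to 1.39 for *Dlx6*, and those of the other 3 kept their sign. The r of *Dlx1* and *Dlx2* ranged from -0.19 to 0.99, of *Dlx3* and *Dlx4* from 0.06 to 0.32, and of *Dlx5* and *Dlx6* from 0.16 to 0.92, the highest in the first and the last pair without cKO replicate 3. The order of levels held in 14 of 15 gene pairs without any library, where 5 libraries allow no p below 0.0625.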

Other observations

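The *Dlx* genes were more spread among the cKO libraries than among the control libraries, a comparison chosen after the values were seen. The SD of log2(TPM + 1) was larger in the cKO for 6 of 6 genes and for 41.2% of all genes tested, with a median over the 6 genes of 0.11 in the control and 0.35 in the cKO, against 0.30 and 0.27 over all genes. The low control values come from 3 libraries each. The 6 genes were measured in the same libraries and are not separate results. Of the 6, 5 had their highest value in cKO replicate 2, as did 25.1% of all genes tested.

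A short transcript of 146 bases within the *Dlx6os1* locus, annotated as a separate gene, was at 29.4 TPM in control replicate 2 and listed at 0 in the other 5 libraries.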
